A study of Mus musculus with 6 samples.

Results

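The genes described here encode the proteins of the cytosolic ribosome. A gene was taken when its symbol was Rpsa, Rplp0, Rplp1 or Rplp2, or began with Rpl or Rps followed by a digit. Symbols that contain "-ps", which mark pseudogenes, and the Rps6k kinase genes were left out. This gave 95 of the 23733 genes in the table, 56 named for the large (60S) subunit and 39 for the small (40S) subunit. By what they encode, 77 are the standard ribosomal protein genes, 46 large and 31 small, and all 77 have several exons. A further 10 are retrocopies, copies made from spliced messages, such as Rps27rt and Rpl37rt, and 7 are paralogs, such as Rpl3l. The last is Rps19bp1, whose product binds a ribosomal protein and is not one itself. The rule does not take in Fau and Rack1, which also encode ribosome components, and they are given separately.

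The ribosome is built in the nucleolus from ribosomal RNA and one copy of most of these proteins, with the stalk proteins Rplp1 and Rplp2 as the exception. The large subunit forms the peptide bonds and the small subunit reads the mRNA. Messages of ribosomal protein genes begin with a terminal oligopyrimidine tract, which places their translation under the control of mTORC1. Every cell type of bone and marrow uses them, and mutations in single members cause skeletal and blood disorders in people and mice.

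Total RNA of whole femurs was compared between 3 mutant and 3 control mice, all 5 weeks old and on a C57BL/6 background, with 1 library per mouse. The mutants were heterozygous for a Flag-tagged mutant Ifitm5 cDNA knocked into Rosa26 and carried Acan-Cre ERT2 (Rosa26 mIfitm5/+ Acan-Cre ERT2), a tamoxifen-inducible Cre under the aggrecan promoter, which is active in chondrocytes. The knocked-in allele is therefore switched on in only some of the cells whose RNA was measured. The dose of tamoxifen was 10 mg/kg, injected at P10 in the methods for RNA-Seq and from P10 to P15 in the description of the line. Controls were littermates with Cre ERT2 alone, with Rosa26 mIfitm5/+ alone or with neither allele. The sources used here do not say which of these each control was, its sex or whether it received tamoxifen.

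Between 11473467 and 17058572 counts were assigned to genes in each library. The targeted gene checks the labels little, since the endogenous and the knocked-in Ifitm5 are counted together, and its level was 36.8 ± 9.25 CPM (a count relative to the size of its library) in controls and 32.0 ± 7.45 CPM in mutants (mean ± SD, n = 3). Markers of osteoblasts, cartilage, erythroid cells, neutrophils, B lineage cells, macrophages, skeletal muscle and dividing cells were all above 0 in all 6 libraries. Summed osteoblast markers lay between 122400 and 177100 CPM in controls and between 61430 and 111700 CPM in mutants. Their log2 fold changes were negative in 14 of 15. Most of this sum was Col1a1, at 82450 to 119100 CPM in controls and 40510 to 73210 CPM in mutants, and Col1a2. Singly, 3 of the 15 osteoblast markers lay wholly below the controls and 0 wholly above, and the others overlapped. Summed cartilage markers were at 3156, 2969 and 2932 CPM in controls and 5255, 2882 and 7565 CPM in mutants, so mutant 2 lay below the controls. Their log2 fold changes were positive in 14 of 15 (median 1.58). Col11a2, the 1 negative marker, gave 1330, 1135 and 1500 CPM of this sum in controls and 733, 876 and 1431 CPM in mutants. Singly, 9 of the 15 cartilage markers lay wholly above the controls, mutant 2 included, and 0 wholly below, against 6.54% and 6.67% of all genes. Summed neutrophil markers lay between 2038 and 2907 CPM in controls and between 2992 and 3175 CPM in mutants. Mmp9, which osteoclasts also make, gave 1442, 1446 and 2594 CPM of this sum in controls and 1184, 1391 and 1930 CPM in mutants. Leaving it out was a choice made after seeing the values. The sums were then 312 to 640 CPM in controls and 1126 to 1992 CPM in mutants, with all 14 log2 fold changes positive. Erythroid markers spanned 1080 to 2431 CPM in controls and 2095 to 11860 CPM in mutants, and markers of cell division 609 to 1090 CPM and 938 to 2147 CPM. Summed osteoblast and neutrophil markers thus did not overlap between the groups, while those of cartilage, erythroid cells and cell division overlapped. The osteoblast sums rest mostly on Col1a1 and Col1a2, and the cartilage sums in part on Col11a2, so sums and single markers can differ. The part of the make-up of the bones in the values of the ribosomal protein genes was not tested. In whole bone fewer cells of a type and less RNA per cell cannot be told apart.

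Reads of these genes are hard to assign, because the mouse genome holds many processed copies of ribosomal protein messages. The first 60 coding bases of 5 members show this. They were read from GRCm39, the build of the files, with the gene models of GENCODE vM39. They are printed 5′ to 3′ in lower case, with capitals where a base differs from the gene named first in its family. Rps27 (chr3:90119819-90120977, minus strand, 4 exons) encodes a zinc-finger protein of the small subunit. Its retrocopy Rps27rt (chr9:114811434-114811807, minus strand, 1 exon) differed from it at 0 of 252 coding bases. The paralog Rps27l (chr9:66853340-66856808, plus strand, 4 exons) differed at 60 of 252, and 18 of these lie in the stretch shown. Rpl37 (chr15:5145959-5153877, plus strand, 4 exons) encodes a protein of the large subunit. Its retrocopy Rpl37rt (chr5:115241287-115241580, minus strand, 1 exon) differed from it at 1 of 291 coding bases, outside the stretch shown.
Rps27: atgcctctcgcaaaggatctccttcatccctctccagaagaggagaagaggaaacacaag
Rps27rt: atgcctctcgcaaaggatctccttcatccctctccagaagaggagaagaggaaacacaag
Rps27l: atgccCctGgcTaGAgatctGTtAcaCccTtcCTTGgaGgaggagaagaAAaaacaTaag
Rpl37: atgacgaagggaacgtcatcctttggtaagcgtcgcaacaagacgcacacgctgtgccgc
Rpl37rt: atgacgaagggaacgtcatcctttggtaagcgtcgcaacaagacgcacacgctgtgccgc
A read within the coding part of an Rps27 exon matches both Rps27 and Rps27rt, whereas a read of Rps27l can be placed.

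Counts differed widely within both families. Rps27rt held 117 ± 16.2 CPM in controls and 122 ± 8.27 CPM in mutants, and Rps27 itself 0.762 ± 0.0930 CPM and 0.869 ± 0.643 CPM (mean ± SD, n = 3). Rpl37rt stood at 13.0 ± 1.34 and 10.4 ± 1.26 CPM and Rpl37 at 3.43 ± 0.432 and 5.37 ± 1.58 CPM. In both families the single-exon copy carried more counts than the gene with introns in all 6 libraries. The deposited counts are estimates that need not be whole, and how they came to be fractional is not stated in the sources used here. Of the 95 members, 76 (80%) had a fractional count in every library, against 17.2% of all genes. The 5 members with whole counts in all 6 libraries were Rpl39, Rpl39l, Rps19bp1, Rps21 and Rps27l.

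A search of 2416 pseudogene, "-ps" and retrocopy genes of the table found 451 near-identical copies of the standard genes, taken as at least 90% identity over at least 50% of the coding sequence. Of these, 9 are members by symbol and 442 are not. The median identity was 97.6%. Copies were found for 73 of the 77 standard genes, and the 4 without any include Rpl39, Rpl41 and Rpl8. They were most numerous for Rpl7a with 31, Rps2 with 29 and Rpl21 with 22.

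Copies held a median of 55.0% of the counts of a gene and its copies together, called its family below. They held over 50% in 41 families and over 90% in 11, those of Rpl10, Rpl12, Rpl13, Rpl17, Rpl23a, Rpl24, Rpl5, Rpl9, Rps13, Rps27 and Rps6. Single copies exceeded the standard gene itself in 55 cases, which touch 40 genes. The pseudogene Rpl10-ps3 averaged 4297 counts against 224 for Rpl10, which encodes a late-joining large subunit protein. Gm15500 averaged 3730 counts against 205 for Rpl5, and Rps6-ps4 2518 counts against 141 for Rps6, the substrate of the S6 kinases. A member's own count is therefore uncertain wherever copies are many, and each result below is given for the gene alone and for its family.

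**Figure D1:**
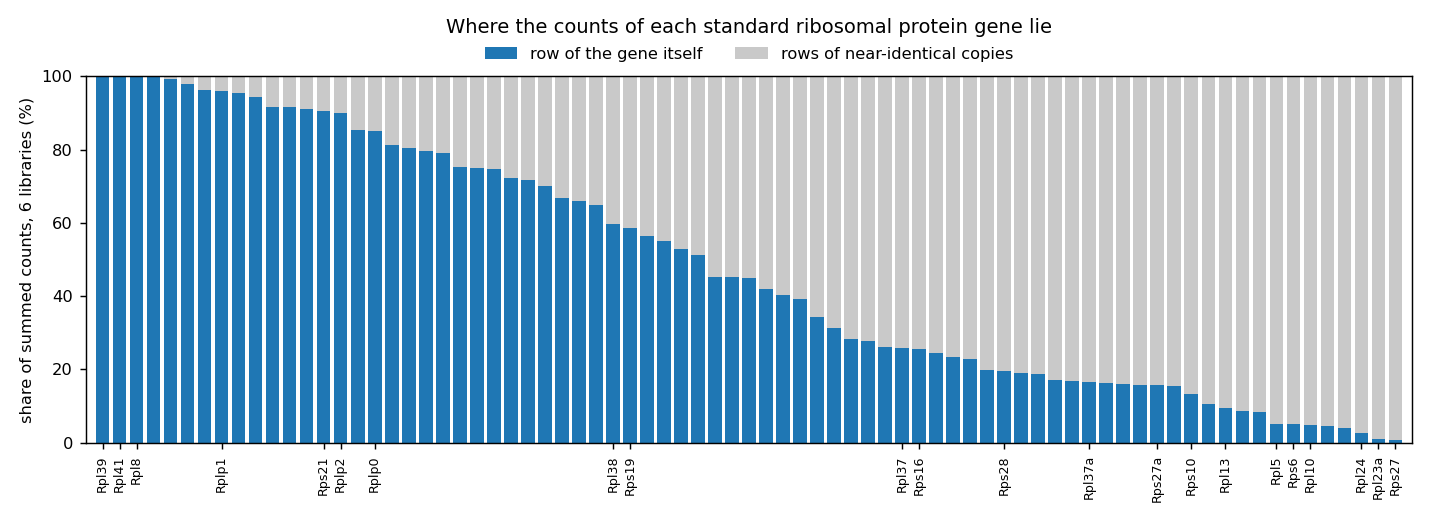
Each bar is 1 of the 77 standard ribosomal protein genes and shows, in percent of the counts summed over the 6 libraries, the part assigned to the gene itself (blue) and to its near-identical copies (grey). Names are given for part of the genes. No copy was found for the 4 genes at the left end, Rpl39, Rpl41 and Rpl8 among them, and at the right end more than 90% of the counts lay on copies in 11 families.

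Levels of genes were compared per length, as TMM-scaled CPM (CPM after correction by the trimmed mean of M-values) per kilobase. They were averaged over the 6 libraries. The length was that of the annotated coding sequence, or of the transcript for pseudogene members without one. Counts are per gene and not per coding part, and the shortest coding sequence was that of Rpl41 with 138 bases. On this scale the standard genes alone ran from 2.66 for Rpl24 to 484 for Rpl41, a 182-fold span, with a median of 60.4. Families ran from 20.04 for Rps21 to 647 for Rps3a1, a 32.3-fold span, with a median of 188. The spread of the levels, as the SD of their log2 values, was 1.70 for genes alone and 1.05 for families. Members of 1 particle thus looked less unequal once their copies were added. Medians of the large and small subunits were 53.8 and 74.1 for genes alone and 176 and 188 for families.

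The highest single members per kilobase were Rpl41 (484), Rps27rt (475), Rplp0 (437), Rps3a2 (326) and Rplp1 (304). Of these, Rps27rt and Rps3a2 are retrocopies. The lowest were Rps23rg1 (0.564), Rpl27rt (0.808) and Rpl32l (1.03), which are retrocopies and the 3 members that failed the filter on low counts, followed by the standard genes Rpl24 (2.66) and Rpl23a (3.14). Copies held 97.3% of the Rpl24 family and 99.0% of the Rpl23a family.

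Mutant and control femurs were compared with the quasi-likelihood test of edgeR, adjusted by Benjamini-Hochberg over the 18126 genes that passed the filter. These include 92 of the 95 members, 54 large and 38 small. No ribosomal protein gene passed an adjusted p of 0.05, and neither did any other gene (0 of 18126, or 0%). Adjusted p-values of the members ran from 0.545 to 0.994. DESeq2 called 0 of the members against 0.627% of all genes it tested, with a lowest adjusted p of 0.42 and no adjusted p for 3 members. Blocking edgeR's fit on the replicate number, which pairs mutants and controls, called 0 members against 3.32% of all genes, with a lowest adjusted p of 0.123.

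At an unadjusted p under 0.05 in edgeR, 0 members were higher, against 5.06% of all genes, and 1 was lower, Rpl41, against 3.49% of all genes. The 3 mutants lay wholly above the 3 controls in 2 members (2.17%), Rpl37 and Rpl38, against 6.54% of all genes. They lay wholly below in 7 members (7.61%), against 6.67% of all genes. Those 7 include Rpl18, Rpl37rt, Rpl41, Rpl6, Rplp1 and Rps4x. The share below is close to that of all genes and is no result about ribosomal protein genes.

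Large subunit genes had a median log2 fold change (mutant minus control) of -0.06, with 18 positive and 36 negative. Small subunit genes had a median of 0.01, with 20 positive and 18 negative. All 18126 genes had a median of 0.00, with 9113 positive and 9013 negative. The differences were small beside their errors. For 51 of the 77 standard genes the whole 95% interval lay within a 1.5-fold change in either direction, and so it did for 28.6% of all genes. The median standard error was 0.15 for the standard genes and 0.25 for all genes. These intervals cover the spread between 3 mice per group.

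**Figure D2:**
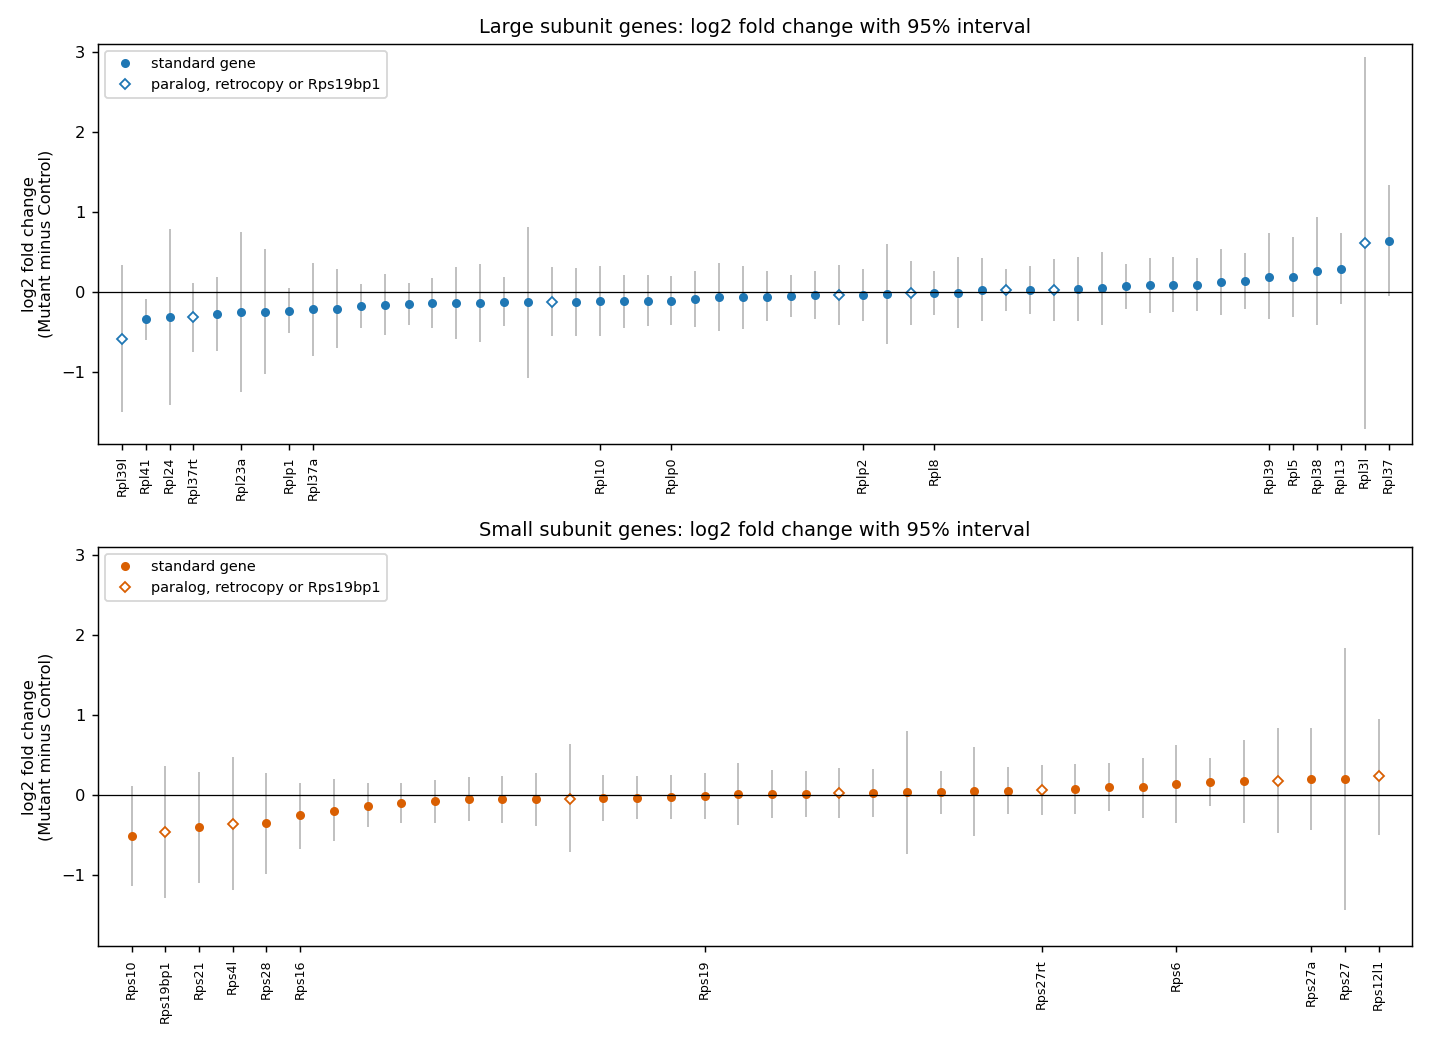
Points give the log2 fold change (mutant minus control, TMM scaling) of each of the 54 large subunit (top) and 38 small subunit (bottom) genes tested, with the 95% interval as a line, open diamonds for paralogs, retrocopies and Rps19bp1, and names for part of the genes. All intervals except that of Rpl41 include 0 under TMM scaling, and those of Rpl3l and Rps27 are the widest.

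The direction of the whole group depends on the scaling. Without a scaling factor, the median log2 fold change of all genes was 0.16, that of the large subunit 0.10 and that of the small subunit 0.17. The signs then divided into 74 positive and 18 negative for the 92 members, against 38 and 54 with TMM. Over all 18126 genes they divided into 12774 positive and 5352 negative, against 9113 and 9013 with TMM. Relative to the median of all genes, the large subunit median lay below it and the small subunit median within 0.01 of it under both scalings. TMM factors were 0.931 to 0.953 in controls and 1.01 to 1.10 in mutants.

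The same holds for summed levels. The share of members in all counts was 0.457%, 0.453% and 0.482% in controls 1, 2 and 3 and 0.529%, 0.474% and 0.524% in mutants 1, 2 and 3. Mutant 2 lay within the range of the controls, and mutants 1 and 3 lay above it. After TMM scaling the sums were 4798, 4868 and 5064 CPM in controls and 4796, 4674 and 4954 CPM in mutants. These ranges overlap, and they lie the other way round.

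By subunit, the TMM-scaled sums of the large subunit were 2443, 2536 and 2591 CPM in controls and 2416, 2363 and 2522 CPM in mutants. Those of the small subunit were 2356, 2331 and 2473 CPM in controls and 2380, 2312 and 2432 CPM in mutants. The ratio of large to small, which no scaling factor enters, was 1.04, 1.09 and 1.05 in controls and 1.01, 1.02 and 1.04 in mutants. With copies added it was 1.41, 1.44 and 1.45 in controls and 1.38, 1.39 and 1.449 in mutants, so the groups overlapped. Within pairs of the same replicate number the mutant had the lower ratio in 3 of 3 pairs, for genes alone and with copies added. Pair 3 was nearly equal with copies added, at 1.45 and 1.449. The pairs were taken from correlations in these same data, with pair 1 the least firm, and no test was run on this ratio.

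**Figure D3:**
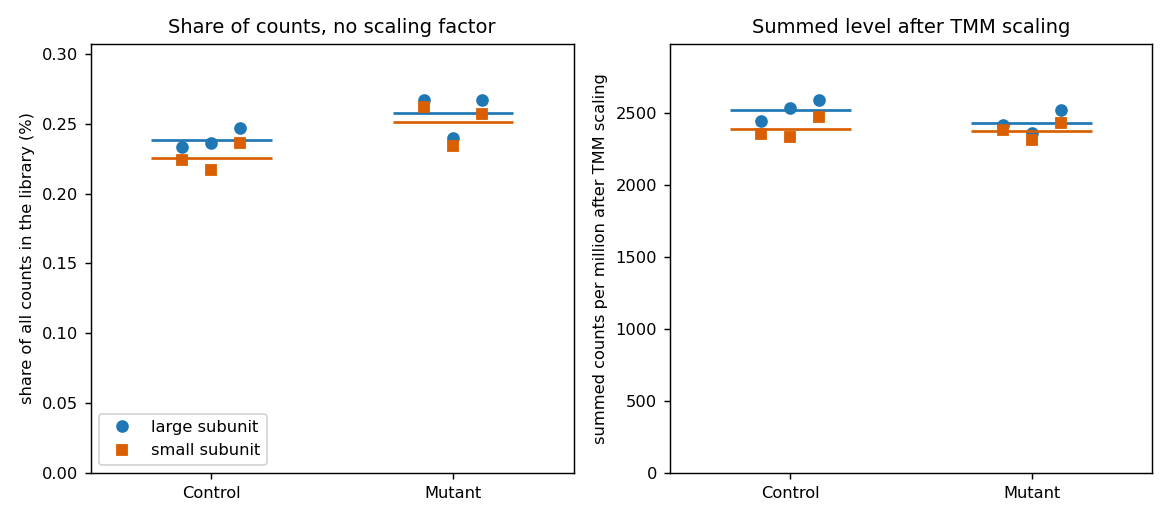
Points are the 6 mice and lines the group means, for large (blue circles) and small (orange squares) subunit genes, as the percent of all counts in the library (left) and as summed TMM-scaled CPM (right). Shares without a scaling factor have higher means in mutants (0.240% to 0.267% for the large subunit against 0.233% to 0.247% in controls), whereas after TMM scaling the mutant sums of the large subunit have the lower mean (2363 to 2522 CPM against 2443 to 2591 CPM).

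Adding the copies to their gene narrowed the spread of the fold changes. For the 77 standard genes the log2 fold changes ran from -0.52 to 0.64 for genes alone and from -0.39 to 0.24 for families. The 95% interval lay within a 1.5-fold change for 69 of 77 families, and the median standard error was 0.13. The sign was the same before and after for 60 of 77. Large and small subunit families had medians of -0.06 and -0.04 under TMM scaling and of 0.11 and 0.12 without a scaling factor, where all genes stood at 0.17.

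For families, 0 were higher and 2 lower (Rpl37a and Rpl41) at an unadjusted p under 0.05, against 928 and 614 of 17885 genes. Of the families 0 passed the adjusted threshold. With TMM scaling the mutants lay wholly below the controls in 11 of 77 families (14.3%), against 6.53% of all genes, and wholly above in 1 (1.30%), that of Rps27a, against 6.73%. Without a scaling factor the picture turned, with 11 families (14.3%) wholly above, against 15.5% of all genes, and 1 (1.30%) wholly below, against 2.08%. The families below with TMM include Rpl18, Rpl37a, Rpl41, Rplp1, Rps10, Rps15, Rps16, Rps19 and Rps4x. A share above the background under one scaling and near it under the other was all that these counts gave.

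**Figure D4:**
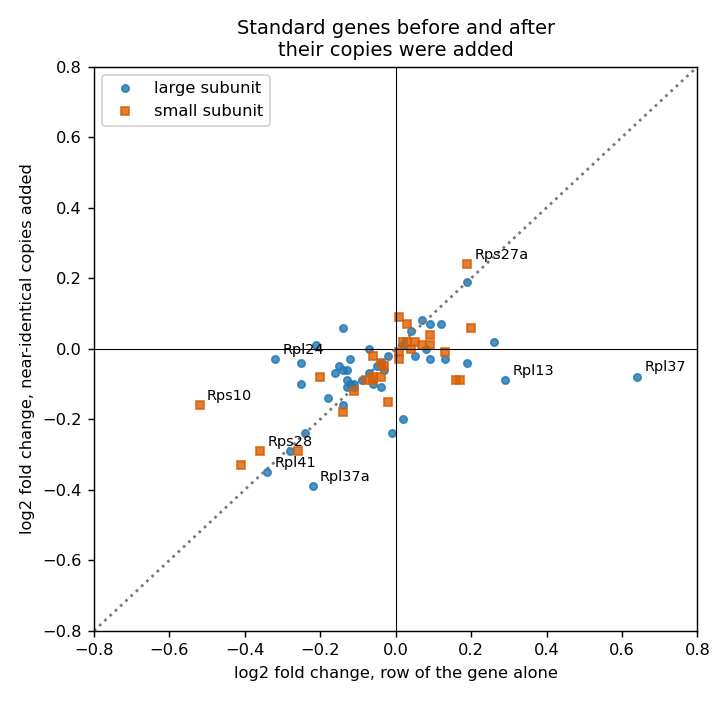
Each point is 1 of the 77 standard genes, with the log2 fold change (mutant minus control, TMM scaling) of the gene alone on the x axis and of the gene with its near-identical copies on the y axis, circles for the large and squares for the small subunit, and a dotted line where both are equal. Rpl37 moved from 0.64 to -0.08 and Rps10 from -0.52 to -0.16, while Rpl41, for which no copy was found, stayed at about -0.34.

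Rpl41, on chr10:128383979-128387628, encodes a very small, basic protein of the large subunit. Its levels were 72.7, 77.6 and 73.8 CPM in controls 1, 2 and 3 and 60.1, 56.6 and 59.9 CPM in mutants 1, 2 and 3. All 3 mutants lay below all 3 controls. The log2 fold change was -0.34 (standard error 0.11, 95% interval -0.60 to -0.09, edgeR adjusted p = 0.545). With the replicate block the adjusted p was 0.123, and without a scaling factor the log2 fold change was -0.18, where the median of all genes was 0.16. No near-identical copy was found for it among the genes searched, but its counts were fractional in all 6 libraries.

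No near-identical copy was found for Rpl8 and Rpl39 either. Rpl8, a large subunit protein near the peptidyl transferase centre, stood at 57.2, 58.8 and 62.5 CPM in controls and 53.4, 60.7 and 62.3 CPM in mutants. Rpl39, which lines the exit tunnel of the large subunit, stood at 8.30, 6.63 and 6.58 CPM in controls and 7.74, 6.87 and 9.97 CPM in mutants. In both genes the groups overlapped. The log2 fold changes were -0.02 for Rpl8 (95% interval -0.29 to 0.26) and 0.19 for Rpl39 (-0.34 to 0.73).

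The stalk of the large subunit, which recruits the elongation factors, is made of Rplp0, Rplp1 and Rplp2. Rplp1 stood at 110.5, 126 and 101 CPM in controls and 99.9, 92.4 and 93.8 CPM in mutants, with all mutants below all controls. Its log2 fold change was -0.24 (standard error 0.13, edgeR adjusted p = 0.627), and copies held 4.03% of its family. Its partner Rplp2 was at 34.2, 31.8 and 26.9 CPM in controls and 31.6, 29.2 and 29.7 CPM in mutants, and the groups overlapped. Its log2 fold change was -0.04 (standard error 0.15, 95% interval -0.36 to 0.29) with TMM and 0.13 without a scaling factor.

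The base of the stalk, Rplp0, often serves as a reference gene in quantitative PCR. Its levels were 396, 432 and 464 CPM in controls and 381, 415 and 402 CPM in mutants, with overlapping groups. The log2 fold change was -0.11 (standard error 0.14, 95% interval -0.42 to 0.20, edgeR adjusted p = 0.837) with TMM and 0.05 without a scaling factor. Per kilobase the Rplp0 family, at 513, was the third highest after Rps3a1 and Rpl10.

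The 6 largest positive log2 fold changes were those of Rpl37 (0.64), Rpl3l (0.61), Rpl13 (0.29), Rpl38 (0.26), Rps12l1 (0.23) and Rps27 (0.20). Rpl37 was at 3.40, 3.01 and 3.88 CPM in controls and 7.03, 3.90 and 5.18 CPM in mutants, so the lowest mutant was just above the highest control. Its standard error was 0.30 and the edgeR adjusted p 0.602. Rpl37rt, the copy that differs by 1 base, went the other way, with 12.04, 14.6 and 12.5 CPM in controls, 9.01, 11.5 and 10.7 CPM in mutants and a log2 fold change of -0.32 (standard error 0.19). Added together with a further copy, the family stood at 17.8 ± 1.91 CPM in controls and 16.9 ± 0.749 CPM in mutants (mean ± SD, n = 3). Its log2 fold change was -0.08 (standard error 0.16). The 2 opposite values thus came from near-identical sequences whose sum overlapped between the groups.

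Rpl13, whose human variants cause a spondyloepimetaphyseal dysplasia, was at 10.2, 13.9 and 13.7 CPM in controls and 13.9, 17.5 and 15.0 CPM in mutants, with a standard error of 0.20 on its log2 fold change. Copies held 90.6% of its family, which stood at 148, 159 and 158 CPM in controls and 140.5, 139 and 158 CPM in mutants (-0.09, standard error 0.12). Rps27 had between 2.04 and 21.2 counts per library, and its log2 fold change of 0.20 had a standard error of 0.72. Its family was at 0.06 (standard error 0.15). For Rps12l1, a retrocopy of Rps12, controls were at 13.8, 7.49 and 7.26 CPM and mutants at 9.01, 9.21 and 15.0 CPM, so 1 library of each group stood apart from the rest.

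Rpl38 encodes the large subunit protein mutated in the Tail short mouse, which has skeletal patterning defects. It was at 2.49, 2.50 and 2.83 CPM in controls and 3.24, 3.26 and 2.92 CPM in mutants, without overlap. Its log2 fold change was 0.26 (standard error 0.30, edgeR adjusted p = 0.816), and at these low counts the interval ran from -0.41 to 0.93. The Rpl38 family overlapped between the groups, with a log2 fold change of 0.02 (standard error 0.25).

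At the negative end were Rpl39l (-0.59), Rps10 (-0.52), Rps19bp1 (-0.47), Rps21 (-0.41), Rps4l (-0.37) and Rps28 (-0.36). Rps10, a small subunit protein at the mRNA entry side, was at 8.30, 6.72 and 5.29 CPM in controls and 4.98, 5.45 and 3.69 CPM in mutants (standard error 0.28, edgeR adjusted p = 0.633). Mutant mouse 2 lay above control mouse 3. Its family, with 86.7% of the counts on copies, was at 44.0, 42.4 and 47.0 CPM in controls and 39.2, 39.7 and 40.5 CPM in mutants. There all mutants lay below all controls, and the log2 fold change was -0.16 (standard error 0.12).

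Rps21 is a small subunit gene with whole counts in every library, of 43, 73 and 91 in controls and 42, 51 and 72 in mutants, and the groups overlapped (standard error 0.31). Rps28, also of the small subunit, was at 6.81, 4.65 and 4.62 CPM in controls and 4.27, 4.68 and 3.56 CPM in mutants, with a standard error of 0.28. Rps19bp1, whose product binds Rps19, had 40, 57 and 42 counts in controls and 39, 40 and 29 in mutants, and its standard error was 0.37. In these 3 genes the highest mutant lay above the lowest control after scaling.

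Among families, that of Rpl37a, a zinc-finger protein of the large subunit on chr1:72750364-72756093, had the largest negative value. It was at 48.7, 45.3 and 37.8 CPM in controls and 33.5, 34.0 and 33.2 CPM in mutants. The mutants lay close together and below all controls. The log2 fold change of the family was -0.39 (standard error 0.14, 95% interval -0.71 to -0.07, edgeR adjusted p = 0.557), and that of Rpl37a alone was -0.22 (standard error 0.26). The Rps16 family followed the same order, with a log2 fold change of -0.29 (standard error 0.13, edgeR adjusted p = 0.583). Rps16 encodes a small subunit protein that reaches the tRNA.

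The 1 family above the controls in all mutants was that of Rps27a, which makes ubiquitin fused to a small subunit protein. It was at 37.5, 39.1 and 41.6 CPM in controls and 46.5, 47.6 and 45.9 CPM in mutants. The log2 fold change was 0.24 (standard error 0.12, 95% interval -0.03 to 0.52, edgeR adjusted p = 0.612). Rps27a alone, with 84.2% of the family on copies, was at 4.15, 6.72 and 7.94 CPM in controls and 8.14, 6.73 and 6.74 CPM in mutants, which overlap (0.19, standard error 0.28).

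**Figure D5:**
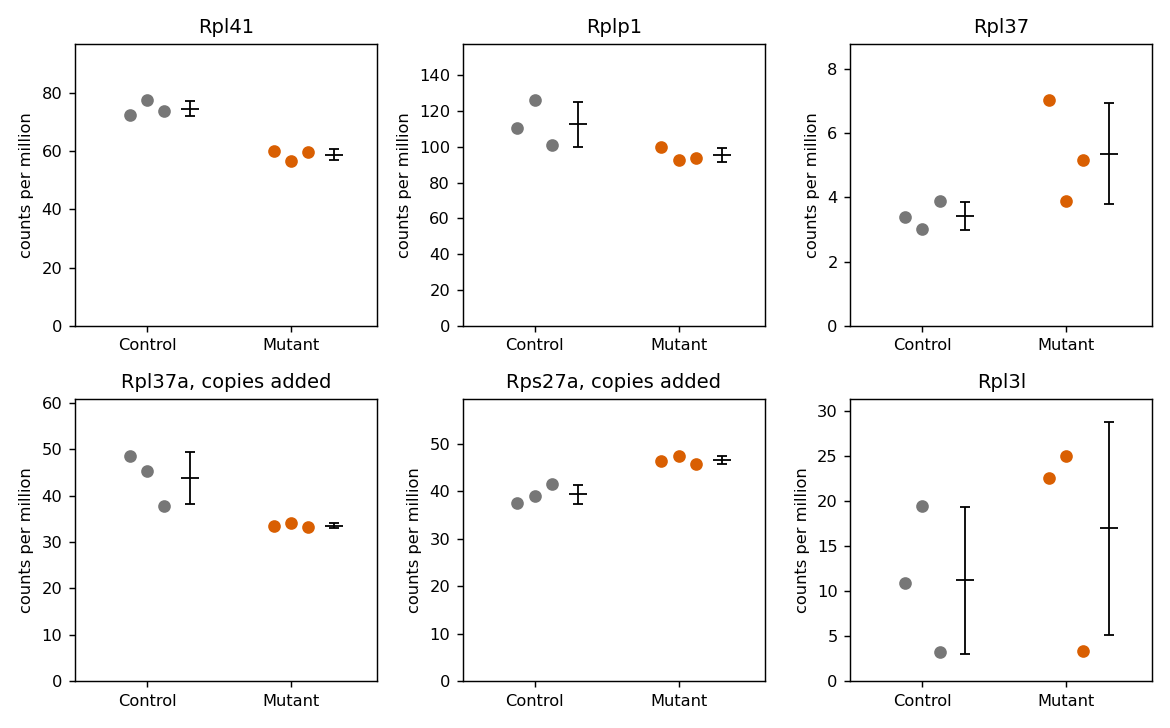
Points are TMM-scaled CPM of the 3 control (grey) and 3 mutant (orange) mice in order of their replicate number, with the mean and SD beside them, for Rpl41, Rplp1, Rpl37 and Rpl3l alone and for Rpl37a and Rps27a with copies added. With this scaling the mutants lie below the controls for Rpl41, Rplp1 and Rpl37a and above them for Rpl37 and Rps27a, whereas for Rpl3l each group spans a wide range (3.20 to 19.5 CPM in controls and 3.37 to 25.1 CPM in mutants).

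A list of 22 members with a known disease, mouse mutant or regulatory role was described as a group. It includes genes of human Diamond-Blackfan anemia, a failure of red cell production (Rps19, Rps24, Rps26, Rps10, Rps7, Rps29, Rpl5, Rpl11, Rpl35a, Rpl26 and Rpl27), and Rps14 of the human 5q- syndrome. Further members are Rps20 (dark skin in mice), Rpl38, Rpl24 (Belly spot and tail in mice), Rpl29 (small stature in null mice), Rpl13, Rpl10 (X-linked intellectual disability in people), Rpsa (congenital asplenia in people), Rps6 and Rps27a. For the genes alone, 12 log2 fold changes were positive and 10 negative, between -0.52 and 0.29, and the lowest edgeR adjusted p was 0.633. For their families, 6 were positive and 16 negative, between -0.24 and 0.24. Without a scaling factor this turned to 18 positive and 4 negative for the genes alone and 21 and 1 for the families. All genes shifted the same way, from 9113 positive of 18126 with TMM to 12774 without a factor. With copies added they shifted from 8954 positive of 17885 to 12630.

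With TMM, 1 of the 22 genes alone lay wholly above the controls, Rpl38, and 0 wholly below, against 6.54% and 6.67% of all genes. Of the families 1 lay above, Rps27a, and 2 below, Rps10 and Rps19, against 6.73% and 6.53%. Without a scaling factor 3 families lay above, against 15.5% of all genes, and 0 below, against 2.08%. The Rps19 family was at 73.3, 74.7 and 69.4 CPM in controls and 65.9, 61.7 and 67.7 CPM in mutants. Rps19 alone was at 43.5, 38.8 and 39.01 CPM in controls and 40.9, 37.2 and 41.5 CPM in mutants, which overlap, with a log2 fold change of -0.02 (standard error 0.13) by TMM and 0.14 without a scaling factor. Rps19 is the gene most often mutated in Diamond-Blackfan anemia, and erythroid markers, given above, were higher in mutant than in control libraries on the mean. Their part in these values was not tested.

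Paralogs can replace the standard protein in particular tissues. Their ratio to the standard gene needs no scaling factor, and it was compared in 6 pairs by a two-sided exact permutation test, which cannot give a p below 0.1 with 3 mice per group. Rpl10l, a paralog of Rpl10, was not analysed here, and Rps27l was not compared because Rps27 had under 10 counts in some libraries. Adjusted over the 6 pairs, every p was 1.

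Rpl3l replaces Rpl3 in striated muscle. It had 131, 226 and 52 counts in controls 1, 2 and 3 and 285, 354 and 52 in mutants 1, 2 and 3. In percent of Rpl3 this was 13.6, 27.9 and 3.94 in controls and 32.8, 39.6 and 4.21 in mutants. Mouse 3 of each group was lowest and mouse 2 highest. Summed muscle markers kept the same order, with 6691, 12930 and 1583 CPM in controls and 10050, 17610 and 2929 CPM in mutants. The log2 fold change of Rpl3l was 0.61 (standard error 0.93, 95% interval -1.72 to 2.94), and the log2 ratio to Rpl3 differed by 0.63 (exact permutation p = 0.5). With the replicate block the unadjusted p of Rpl3l was 0.0291 and its edgeR adjusted p 0.224. The part of muscle in the Rpl3l value was not tested.

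Rpl39l is known from male germ cells of mice. It was at 41.0%, 58.4% and 94.4% of Rpl39 in controls and 20.4%, 57.7% and 34.4% in mutants. The groups overlapped, and the log2 ratio differed by -0.83 (exact permutation p = 0.2), the largest difference of the 6 pairs. Its counts were 41, 45 and 101 in controls and 20, 56 and 53 in mutants, so control mouse 3 stood above the others.

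Among the other paralogs, the log2 ratio of Rps4l to Rps4x differed by -0.31 (exact permutation p = 0.6), and Rps4l stood at 3.30% to 9.35% of Rps4x over the 6 libraries. Rpl22l1, a paralog of the RNA-binding Rpl22, stood at 30.4% to 35.6% of Rpl22 in controls and 27.4% to 41.6% in mutants, a difference in log2 ratio of 0.01 (exact permutation p = 1). For Rpl7l1 the difference was -0.04 (p = 0.7) and for Rpl36al -0.04 (p = 0.9), both by the exact permutation test. Rpl36al had 357% to 763% of the counts of Rpl36a itself. Copies of Rpl36a were left out of this value, and with them added Rpl36al was at 77.9%, 121% and 90.6% of the family in controls and 87.8%, 89.8% and 101% in mutants. The 7 paralogs tested had 3 positive and 4 negative log2 fold changes, and the 7 retrocopies tested had 4 positive and 3 negative, with medians of -0.02 and 0.02.

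Both ribosome components outside the rule gave like values. Rack1, a scaffold on the small subunit, was at 336 ± 37.7 CPM in controls and 329 ± 22.1 CPM in mutants (mean ± SD, n = 3). Fau, which makes a small subunit protein fused to a ubiquitin-like protein, was at 6.80 ± 1.64 CPM in controls and 7.004 ± 0.688 CPM in mutants. In both the groups overlapped.

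Genes that work beside the cytosolic ribosome were counted from lists of 78 mitochondrial ribosomal proteins, 38 translation factors, 44 ribosome biogenesis genes and 18 genes of growth control. None passed an adjusted p of 0.05 in edgeR's test. The median log2 fold changes were -0.01, 0.04, 0.01 and -0.07 with TMM and 0.15, 0.20, 0.17 and 0.09 without a scaling factor. At an unadjusted p under 0.05 with TMM, 2 of the 78 mitochondrial ribosomal protein genes were lower, Mrps26 and Mrpl58. That share was smaller than the 3.49% of all genes. Without a scaling factor 0 were lower and 3 higher, against 153 and 1961 of all 18126 genes. Mrps26 was at 12.1 ± 0.890 CPM in controls and 8.54 ± 0.897 CPM in mutants (mean ± SD, n = 3).

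Of the 44 ribosome biogenesis genes, 1 was lower and 0 higher at an unadjusted p under 0.05, against 3.49% and 5.06% of all genes. That was Bop1, a factor in large subunit assembly, at 20.9, 20.7 and 25.2 CPM in controls and 17.9, 14.5 and 15.7 CPM in mutants (edgeR adjusted p = 0.563). Nhp2, a protein of box H/ACA particles, was also lower in all 3 mutants, at 2.93 ± 0.497 CPM against 4.38 ± 0.664 CPM (edgeR adjusted p = 0.615). With TMM, 5 of the 44 lay wholly below the controls and 3 wholly above, Nop56 and Npm1 among the latter, against 6.67% and 6.54% of all genes. Without a scaling factor 0 of the 44 lay below and 10 above, against 375 and 2778 of all 18126 genes. Of the 38 translation factors, 3 lay above the controls in all mutants with TMM, among them Eef1d and Etf1, and 1 below, against 6.54% and 6.67% of all genes, so their number was near the background. Without a scaling factor 9 lay above and 0 below, against 2778 and 375 of all 18126 genes. Eef1d, an exchange factor subunit for eEF1A, was at 29.0, 35.9 and 35.1 CPM in controls and 42.8, 40.9 and 38.8 CPM in mutants (edgeR adjusted p = 0.606).

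In growth control, Mxd1, a partner of Max that opposes Myc, was at 65.0, 50.9 and 46.0 CPM in controls and 151, 119 and 74.6 CPM in mutants, without overlap. Its edgeR adjusted p was 0.49, and it was the 1 gene of these lists called with the replicate block (adjusted p = 0.00161), by a pairing that is least firm for pair 1. DESeq2 called 1 gene of this list, again Mxd1. Myc itself, which drives ribosome production, was at 27.9 ± 2.78 CPM in controls and 24.7 ± 3.29 CPM in mutants, and Rps6kb1, the S6 kinase, at 75.5 ± 8.70 and 65.8 ± 3.61 CPM (mean ± SD, n = 3). In both the groups overlapped. Summed neutrophil markers did not overlap between the groups either, as given above, and their part in the Mxd1 value was not tested.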

How the data were processed

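Total RNA of 6 femurs, depleted of ribosomal RNA, was sequenced as paired-end reads, 1 library per mouse, so p-values measure the spread between mice. The authors aligned reads with STAR to mm39, and the submitters' notes name Partek. The authors deposited estimated counts per gene, unscaled, of which 70.7% were whole. The lowest sum over the 6 libraries was 10 counts. The sources used here give no versions, annotation, counting settings or strand use, so overlapping genes cannot be told apart. The file held 0 columns of other samples. Genes were named by identifier from GENCODE vM39, which matched 23572 of 23733.

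Counts were rounded to whole numbers, filtered by filterByExpr (minimum 10, total 15), scaled by TMM and tested by edgeR's robust quasi-likelihood test. CPM are TMM-scaled, and the threshold was 0.05 after Benjamini-Hochberg adjustment. Methods name DESeq2, which was an alternative here, and a 2-way ANOVA, which was not run. R 4.3.3, edgeR 4.0.16, limma 3.58.1, DESeq2 1.42.0, BLAST 2.17.0, Python 3.11.15, pandas 2.3.3 and matplotlib 3.10.9 were used. Tests were tested on simulated data. No libraries agreed within counting noise (chi-square per gene at least 16.2).

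Members and lists were chosen with earlier results of these data known. Near-identical copies were found by BLAST of coding sequences, and their addition was chosen after seeing the data. Other alternatives were DESeq2, limma-voom with and without quality weights, library size alone, median-ratio size factors, TMM without the 10 most abundant genes, scaling to the summed members, no filter, at least 1 CPM in 3 libraries with a mean of 20 counts, no robust estimation, adding copies by name, leaving out paralogs and Rps19bp1, a replicate block and the omission of each library in turn.

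Labels number the mice 1 to 3 in each group, and same-numbered mice shared deviations from their group means (correlations of 0.154, 0.212 and 0.465, all over 0.1), so the numbers were taken as pairs. Mutant mouse 1 correlated more with control mouse 2 (0.202), which makes pair 1 the least firm. The genes named are the 6 largest and 6 smallest log2 fold changes and the 5 highest and 5 lowest per kilobase. Members past the adjusted threshold in either edgeR fit were to be named too, and there were 0. The listed paralogs, stalk proteins, Rps19bp1 and disease genes, and up to 4 of each other list, are named as well. Rpl37rt, Rpl37a, Rps16, Rpl8, Rpl39 and the genes with groups that do not overlap or with many copies were named after their values were seen. Values of some genes are not reported here.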

Additional observations from a re-analysis of the deposited data

How the results depend on the processing

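No member passed the adjusted threshold under any alternative run. Values below are log2 fold changes, mutant minus control, and the cause of each shift was not tested. Without a scaling factor (library size alone) the medians were 0.10 for the large subunit, 0.17 for the small and 0.13 for all members, and Rplp0 was at 0.05, Rplp2 at 0.13, Rpl8 at 0.14 and Rps19 at 0.14. At an unadjusted p under 0.05, 3 members were then higher and 0 lower, against 1961 and 153 of all 18126 genes. With copies added the small subunit median was -0.04, Rpl37 -0.08 and Rpl13 -0.09. With copies added and library size alone the medians were 0.11, 0.12 and 0.11. Rplp0 was then at 0.06, Rplp2 at 0.06, Rpl8 at 0.14 and Rps19 at 0.01. In that fit 1 member was higher and 0 lower at an unadjusted p under 0.05, against 1946 and 152 of 17885 genes. The small subunit median was -0.03 by limma-voom with quality weights, -0.04 with copies added by name and 0.04 when scaled to the summed members, where Rpl8 was at 0.01 and Rps19 at 0.01. Rps27 was at -0.26 by limma-voom and -0.93 with quality weights. By the latter 2 members were lower at an unadjusted p under 0.05. The count over all genes by that fit is not reported here.

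Under the replicate block, which rests on the pairing above, Rps27 was at -0.01. At an unadjusted p under 0.05, 1 member was higher (Rpl3l) and 1 lower (Rpl41), against 1795 and 1225 of all 18126 genes. With the block and copies added the small subunit median was -0.04, Rpl37 -0.07 and Rpl13 -0.09. There 1 member was higher and 4 lower at an unadjusted p under 0.05, against 1753 and 1240 of 17885 genes. At the adjusted threshold the block called 0 members, for genes alone and with copies added.

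The fits were also run leaving out 1 library at a time, with or without copies. The medians then ran from -0.11 to -0.02 for the large subunit, -0.08 to 0.03 for the small and -0.09 to -0.01 for all members. At an unadjusted p under 0.05, 0 to 2 members were lower and 0 to 1 higher. Counts over all genes in these runs are not reported here. Rpl13 ran from -0.15 to 0.37, Rpl37 from -0.13 to 0.82, Rpl38 from -0.07 to 0.33, Rplp2 from -0.18 to 0.03, Rps12l1 from -0.06 to 0.57, Rps27 from -0.30 to 0.69, Rps27a from -0.04 to 0.41, Rps27rt from -0.07 to 0.13, Rps19 from -0.18 to 0.03 and Rpl8 from -0.06 to 0.05. Rps27a was at -0.04 alone without control mouse 1, and Rps12l1 at -0.06 without mutant mouse 3. The log2 ratios ran from -0.14 (without control mouse 3) to 1.66 for Rpl3l, -0.10 to 0.03 for Rpl7l1, -0.16 to 0.14 for Rpl22l1, -0.37 to 0.17 for Rpl36al and -0.55 to 0.09 for Rps4l. Rpl41 stayed between -0.38 and -0.31. With 3 mice per group and low counts on many single genes, an adjusted p over the threshold does not show equal levels.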
